A study of Mus musculus with 8 samples.

Results

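The RING-between-RING (RBR) ubiquitin ligases of mouse keratinocytes were examined as 10 genes chosen by symbol: Arih1, Arih2, Rnf14, Rnf19a, Rnf19b, Rnf144a, Rnf144b, Rnf216, Rnf217 and Cul9. They are 10 of the 19457 gene rows of the series, and all 10 had a row. HOIL-1 and HOIP, the RBR subunits of the linear ubiquitin assembly complex, were left out of the set by its rule, and Ankib1, also an RBR gene, is not among its symbols. RNA was sequenced from primary keratinocytes, the epithelial cells of the epidermis, which had been grown from skin and taken before the cultures were confluent. The 4 wild-type (WT) libraries were compared with 4 libraries from mice of the genotype HOIL1 ΔRING1 (HdR), whose HOIL-1 lacks its first RING domain. Strain, sex, age and any treatment of the animals or cultures are not given in the sources used here, nor is a separate animal or culture named for each library, so the p-values measure only the spread between these libraries.

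An RBR ligase takes ubiquitin from a charged E2 enzyme at its first RING domain, passes it to a cysteine in its last RING-like domain, and from there to the substrate. The family therefore works as a hybrid of the RING and HECT ligase classes. Its members differ in the domains around this module: the ariadne ligases dock on cullin-RING complexes, CUL9 is itself part cullin, and the RNF19 and RNF144 proteins carry membrane anchors. The HdR allele alters 1 member of the same family, and the comparison describes the transcripts of the other members in that genotype.

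Levels are given as aligned bases per Mb: the bases aligned to a gene for each Mb of bases in its library, after scaling between libraries. A gene was called at a limma adjusted p under 0.05 over the 11870 genes with a mean level of at least 1. WT libraries held 4.78 to 5.43 Gb of aligned bases and HdR libraries 2.31 to 4.31 Gb, so depth and genotype cannot be told apart (p = 0.029, two-sided, by exact permutation, the minimum with 70 regroupings). HdR 4 was the shallowest library, and WT 4 lay nearest to HdR on the first principal component (11.3, where WT 1 to 3 were at 17.8 to 20.3 and HdR at -19.3 to -15.5). The 6 keratinocyte markers (Krt5, Krt14, Trp63, Itga6, Itgb4 and Col17a1) were all well above the filter, with a summed level of 38198 to 41500 in WT and 41162 to 42485 in HdR, and 4 of them were called higher in HdR and 0 lower. All 5 fibroblast markers with a row and all 3 endothelial markers were under the filter, while 5 of 7 melanocyte markers were lower in HdR.

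In HdR keratinocytes, 5 RBR ligase genes fell and none rose. Rnf144b fell by 27.8% and Cul9 fell by 42.2%, while Rnf19b fell by 16.7%, Rnf19a fell by 14.4% and Rnf217 fell by 13.9%. Arih1, Arih2, Rnf14 and Rnf216 were not called, and Rnf144a was too low to be tested. Of the 9 tested members 5 were called lower (55.6%), against 23.8% of all genes tested, and 0 were called higher, against 21.2%, with 45% of all genes called in either direction. In the same 5 members the HdR values lay below all WT values, which held for 21.3% of all genes tested (19.8% lay above). The median log2 fold change of the 9 members was -0.21 and that of all genes tested was -0.01. Only Rnf144b passed a test against a fold of 1.2 (limma treat adjusted p = 0.0389), so the other 4 falls were not shown to exceed that size, Cul9 included (adjusted p = 0.12).

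**Figure D1:**
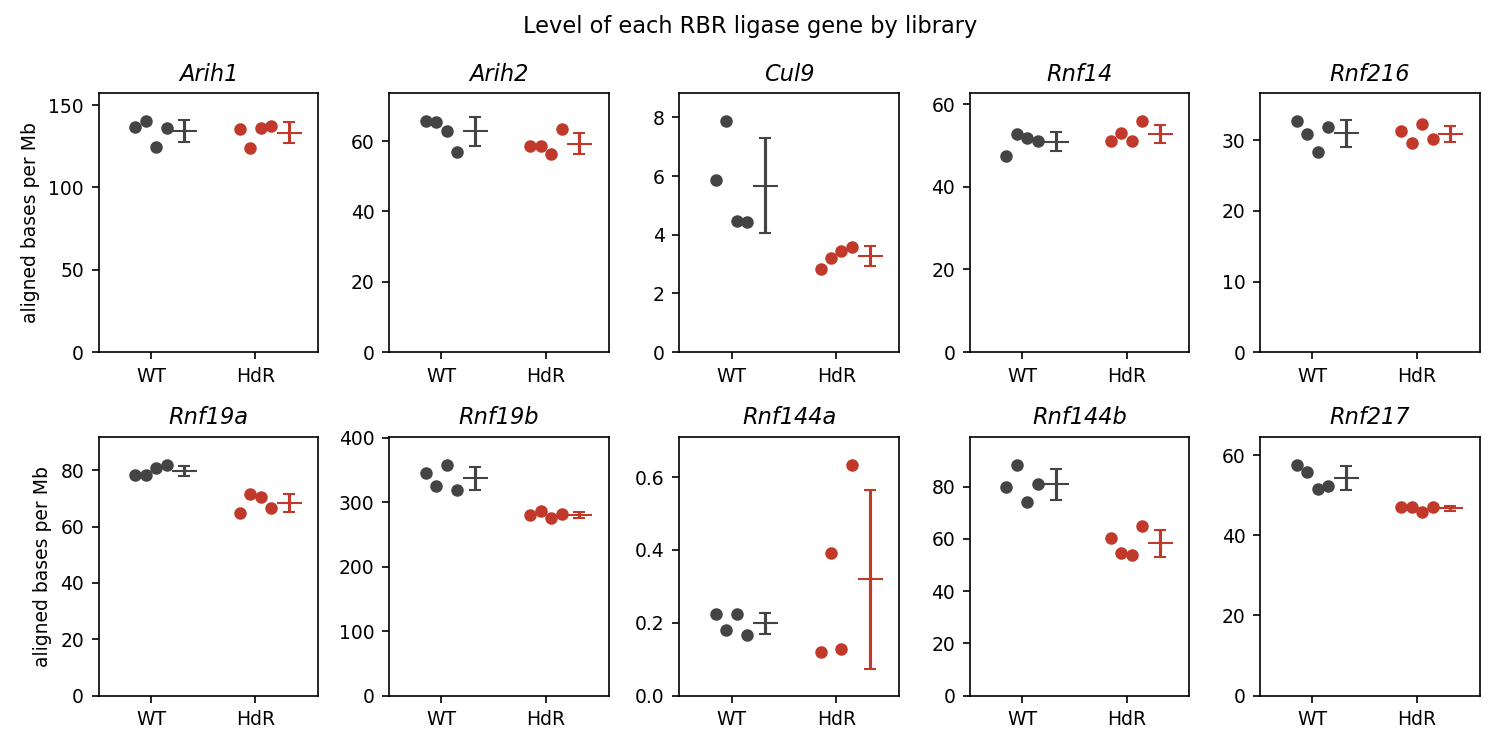
Level of each of the 10 RBR ligase genes in aligned bases per Mb (vertical axis from 0, a separate scale for each gene) in the 4 WT libraries (grey points, replicates 1 to 4 from left to right) and the 4 HdR libraries (red), with the mean and SD (bar) beside each group. Cul9, Rnf19a, Rnf19b, Rnf144b and Rnf217 show HdR points below every WT point, and the other 5 genes overlap.

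The RNF144 proteins are small membrane-anchored ligases. RNF144B is known as a p53-inducible ligase that acts on BAX, and RNF144A as a ligase for the DNA-dependent protein kinase. Rnf144b (GRCm38, the build of all positions here, chromosome 13, 47122656 to 47247991, plus strand) had levels of 79.7, 88.4, 74.3 and 80.8 aligned bases per Mb in WT 1 to 4 and of 60.2, 54.5, 53.9 and 64.8 in HdR 1 to 4. The highest HdR library, HdR 4, stayed below the lowest WT library, WT 3. The mean fell from 80.8 ± 5.8 to 58.4 ± 5.17 (SD, n = 4 each), or -0.46 ± 0.062 in log2 terms (SE, adjusted p = 2.26e-05 by limma). Without HdR 4 it was -0.52, without WT 4 -0.46, and after thinning every library to the depth of the shallowest -0.49.

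Its paralogue Rnf144a (chromosome 12, 26300964 to 26415254, minus strand) was close to absent from these cultures. Its levels were 0.224, 0.181, 0.223 and 0.167 aligned bases per Mb in WT and 0.121, 0.393, 0.129 and 0.634 in HdR, about 1.67 to 4.88 read pairs in a library. The HdR values lay on both sides of the WT values, and no change could be read at this depth. Fitted without the filter, its log2 fold change was 0.12 ± 0.11 (SE, limma adjusted p = 0.487). The log2 ratio of Rnf144a to Rnf144b within a library was -6.09 ± 0.127 in WT and -5.51 ± 0.221 in HdR (SD, n = 4), a difference of 0.58 with groups that did not overlap (exact permutation test, two-sided p = 0.0286, adjusted p = 0.0858 over the 3 paralogue pairs). With the pseudocount of 1, the difference of 0.58 is made up of 0.12 from Rnf144a and 0.46 from Rnf144b. Rnf144a lies under this pseudocount, and with a pseudocount of 0.1 the difference was 0.78 (exact permutation test, adjusted p = 0.429).

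CUL9, also called PARC, joins a cullin body to an RBR module and is known to bind p53 in the cytoplasm. Cul9 (chromosome 17, 46500572 to 46546388, minus strand) had levels of 5.88, 7.87, 4.46 and 4.45 aligned bases per Mb in WT and of 2.83, 3.21, 3.46 and 3.58 in HdR. WT libraries differed more from each other than HdR libraries did, with WT 2 the highest and WT 3 and WT 4 nearest to HdR. The coefficient of variation of Cul9 in WT was 28.6%, against 2.21% to 7.18% for the other 8 tested members. The mean went from 5.67 ± 1.62 to 3.27 ± 0.33 (SD, n = 4), or -0.62 ± 0.14 in log2 terms (SE, adjusted p = 0.00187 by limma), measured on about 27.6 to 125 read pairs in a library. At this level the fold depends on the pseudocount, and it was -0.36 with a pseudocount of 5 and -0.80 with limma-voom. Leaving out each library in turn gave -0.70 to -0.47.

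The RNF19 proteins are transmembrane RBR ligases: RNF19A, or Dorfin, was described in protein inclusions of neurons, and RNF19B, or NKLAM, in cytotoxic lymphocytes and macrophages. Rnf19b (chromosome 4, 129058271 to 129085886, plus strand) had levels of 346, 325, 358 and 319 aligned bases per Mb in WT and of 280, 286, 275 and 281 in HdR. All HdR libraries fell within a narrow band below the WT libraries. The mean fell from 337 ± 18.3 to 281 ± 4.38 (SD, n = 4), or -0.26 ± 0.039 in log2 terms (SE, adjusted p = 4e-05 by limma). Rnf19a (chromosome 15, 36239933 to 36283147, minus strand) had 78.4, 78.4, 80.7 and 81.9 in WT and 64.9, 71.4, 70.5 and 66.7 in HdR. Here the WT libraries were the tight group, and the closest HdR library, HdR 2, was below all of them. The mean fell from 79.9 ± 1.76 to 68.4 ± 3.1 (SD, n = 4), or -0.22 ± 0.043 in log2 terms (SE, adjusted p = 0.000515 by limma).

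Both RNF19 transcripts fell by a like amount. The log2 ratio of Rnf19a to Rnf19b was -2.06 ± 0.0885 in WT and -2.02 ± 0.0663 in HdR (SD, n = 4), and the groups overlapped (difference 0.04, exact permutation test, two-sided p = 0.486, adjusted p = 0.486). The ratio ran from -2.14 to -1.95 in WT and from -2.09 to -1.95 in HdR. A microRNA gene, Mir8097, shares 119 exon bases with Rnf19a, 2.68% of its exon length, and its reads cannot be told apart there.

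RNF217 is known as a ligase for the iron exporter ferroportin. Rnf217 (chromosome 10, 31493193 to 31609184, minus strand) had levels of 57.6, 55.7, 51.5 and 52.2 aligned bases per Mb in WT and of 47.0, 46.9, 45.7 and 47.1 in HdR. The HdR libraries were the most uniform of any tested member, with a coefficient of variation of 1.41%. The mean fell from 54.3 ± 2.9 to 46.7 ± 0.657 (SD, n = 4), or -0.21 ± 0.048 in log2 terms (SE, adjusted p = 0.00179 by limma). Its ferroportin target gene Slc40a1 was near the filter and not tested, at 1.05 ± 0.345 in WT and 0.747 ± 0.097 in HdR (SD, n = 4).

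The 3 called members with the largest log2 falls are shown with the 250 bases before each start that RefSeq lists for them (GRCm38.p6). Capitals mark matches on either strand to the GC box GGGCGG, the CCAAT box, the AP-1 motif TGANTCA, the E-box CACGTG, the TATAAA box or the kappaB motif of NF-κB. Rnf144b has 2 listed starts, and the summed coverage of a gene does not tell transcripts of the first from those of the second. The windows are Rnf144b first start chr13:47122470-47122719 and second start chr13:47193753-47194002 (plus strand), Rnf19b chr4:129057894-129058143 (plus strand) and Cul9 chr17:46546389-46546638 (minus strand), written 5′ to 3′ along the gene.
Rnf144b first start: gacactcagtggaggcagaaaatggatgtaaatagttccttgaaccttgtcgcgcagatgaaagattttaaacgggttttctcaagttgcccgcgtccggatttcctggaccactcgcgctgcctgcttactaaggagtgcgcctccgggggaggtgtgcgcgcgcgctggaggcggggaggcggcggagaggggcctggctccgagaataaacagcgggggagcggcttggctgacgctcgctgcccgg
Rnf144b second start: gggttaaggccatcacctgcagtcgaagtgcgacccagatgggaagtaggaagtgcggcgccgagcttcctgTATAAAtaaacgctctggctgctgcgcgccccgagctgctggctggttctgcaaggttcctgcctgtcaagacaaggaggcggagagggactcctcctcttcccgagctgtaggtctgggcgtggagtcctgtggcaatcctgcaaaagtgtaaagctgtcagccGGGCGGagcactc
Rnf19b: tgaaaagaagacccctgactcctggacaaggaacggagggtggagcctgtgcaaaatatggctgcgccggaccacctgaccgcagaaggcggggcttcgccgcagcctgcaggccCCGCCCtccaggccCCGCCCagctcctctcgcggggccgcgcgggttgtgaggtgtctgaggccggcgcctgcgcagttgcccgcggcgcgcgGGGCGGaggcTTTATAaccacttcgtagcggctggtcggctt
Cul9: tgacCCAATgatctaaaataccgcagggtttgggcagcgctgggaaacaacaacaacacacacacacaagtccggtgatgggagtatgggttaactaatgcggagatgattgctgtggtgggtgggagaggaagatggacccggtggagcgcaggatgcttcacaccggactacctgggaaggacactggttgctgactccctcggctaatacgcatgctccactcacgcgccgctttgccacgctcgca

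No motif searched was in all 4 windows printed. The first Rnf144b window held no match, and the second held a TATAAA match 173 bases before the start and a GC box 8 bases before it. Rnf19b held 3 GC boxes, 130, 116 and 37 bases before the start that RefSeq lists, and a TATAAA match at 27 bases. That start lies upstream of the first base of Rnf19b in GENCODE vM21 given above, so distances to the GENCODE start are longer. The first Rnf144b window instead runs past the first base of Rnf144b in GENCODE vM21 (47122656), so its last bases lie inside the gene there. Cul9 held only a CCAAT match, at 242 bases. The sequence table had 10 windows for 8 of the members. A GC box was in 4 of them (32.7% of all 32851 windows), CCAAT in 2 (33.8%), TATAAA in 2 (12.4%), the kappaB motif in 1, the first window of Arih2 (7.25%), and AP-1 and the E-box in 0 (6.75% and 6.02%). A match describes letters in the window and not a bound site.

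The ariadne ligases ARIH1 and ARIH2 are switched on by NEDD8-modified cullins and place ubiquitin on the substrates of those complexes, ARIH2 with CUL5. Arih1 (chromosome 9, 59388258 to 59486618, minus strand) had levels of 137, 140, 125 and 136 aligned bases per Mb in WT and of 136, 124, 136 and 137 in HdR. The groups lay on top of each other, each with 1 lower library (WT 3 and HdR 2). The log2 fold change was -0.01, with a 95% interval of -0.11 to 0.08 (limma adjusted p = 0.845). Arih2 (chromosome 9, 108602942 to 108649386, minus strand) had 65.6, 65.4, 62.9 and 57.0 in WT and 58.6, 58.5, 56.4 and 63.4 in HdR. Its groups overlapped through WT 4 and HdR 4, and its log2 fold change was -0.08, with a 95% interval of -0.19 to 0.03 (limma adjusted p = 0.227). Without WT 4 it was -0.13, still not called (adjusted p = 0.0551). The log2 ratio of Arih1 to Arih2 was 1.09 ± 0.113 in WT and 1.16 ± 0.0853 in HdR (SD, n = 4, difference 0.07, exact permutation test, two-sided p = 0.371, adjusted p = 0.486).

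RNF216, or TRIAD3, is known as a ligase for Toll-like receptors and their adaptors. Rnf216 (chromosome 5, 142990893 to 143112994, minus strand) had levels of 32.7, 30.9, 28.4 and 31.9 aligned bases per Mb in WT and of 31.4, 29.7, 32.3 and 30.1 in HdR. Every HdR value lay inside the WT range. The log2 fold change was -0.003, with a 95% interval of -0.12 to 0.12 (limma adjusted p = 0.969). An antisense pseudogene, Gm43380, covers 220 exon bases of Rnf216, 3.06% of its exon length.

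RNF14 ubiquitinates translation factors on stalled ribosomes. Rnf14 (chromosome 18, 38284537 to 38317849, plus strand) had levels of 47.6, 52.9, 51.8 and 51.2 aligned bases per Mb in WT and of 51.1, 53.0, 51.0 and 55.9 in HdR. It was the only tested member with a mean above that of WT in HdR, set by a low WT 1 and a high HdR 4 around overlapping values. The log2 fold change was 0.05, with a 95% interval of -0.05 to 0.16 (limma adjusted p = 0.411). For these 4 uncalled members the intervals reach no further than 0.19 in either direction, which is smaller than the estimated falls of the 5 called members (0.21 to 0.62). Whether the changes of called and uncalled members differ from each other was not tested.

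**Figure D2:**
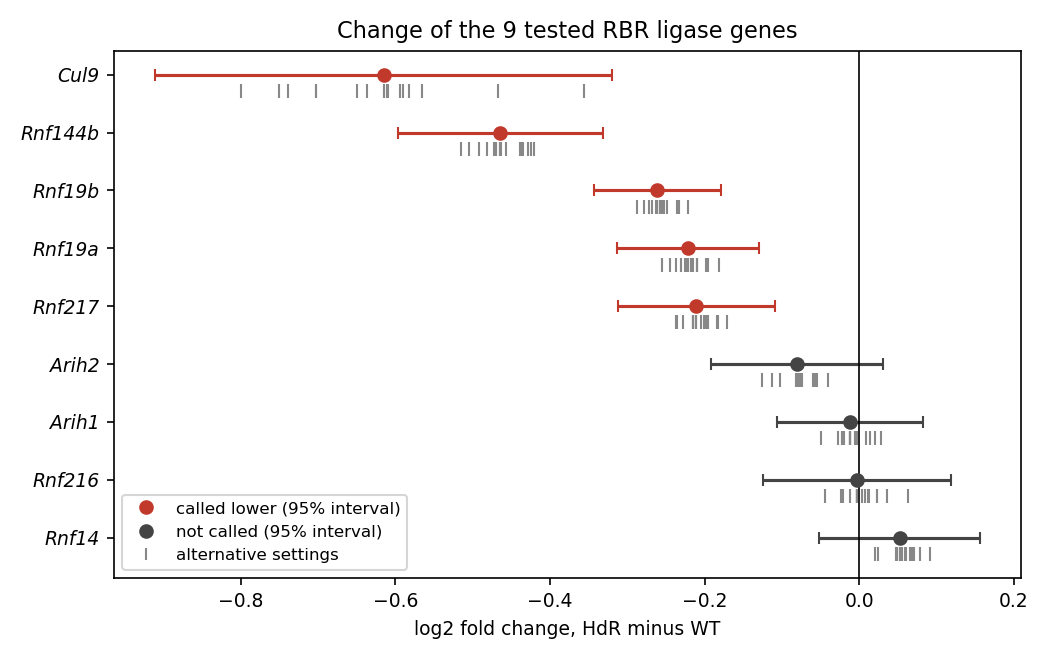
Log2 fold change (horizontal axis, HdR minus WT) of the 9 tested RBR ligase genes with its 95% interval from limma, red where called lower and grey where not called; the short grey ticks under each gene are its values under the alternative settings. The 5 red intervals lie wholly below 0, from Cul9 at -0.62 to Rnf217 at -0.21, while the ticks of Arih1 and Rnf216 fall on both sides of 0.

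To compare members with each other, levels were divided by exon length in GENCODE vM21. Rnf19b was the most abundant member in WT, at 117 ± 6.36 aligned bases per Mb per kb of exon (SD, n = 4), and made up 59.3% of the summed length-scaled level of the 10 genes in WT and 57.5% in HdR. A middle group followed in WT: Rnf19a at 17.7 to 18.5, Arih1 at 16.2 to 18.2 and Rnf144b at up to 17.9, whose ranges over the libraries overlapped, so their order is not resolved. Rnf14 at 10.6 ± 0.481, Arih2 at 8.18 ± 0.526, Rnf217 at 4.93 ± 0.263 and Rnf216 at 4.31 ± 0.262 came next, each above the range of the following gene. Cul9 at 0.464 ± 0.133 and Rnf144a at 0.0271 ± 0.00397 were far below the rest.

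In HdR, Rnf19a and Rnf217 each moved down 1 place in this order, and Rnf19b, Rnf144b and Cul9 kept theirs. Arih1 (17.3 ± 0.809, SD, n = 4) stood above Rnf19a (15.4 ± 0.7) and Rnf144b (11.8 ± 1.05), and the ranges of Arih1 and Rnf19a met only at their edges (16.1 in both). Rnf144b, at 10.9 to 13.1, then overlapped Rnf14, at 10.7 to 11.7, and Rnf217 (4.24 ± 0.0596) overlapped Rnf216 (4.3 ± 0.164). The order rests on which exons are counted. Per kb of the longest coding transcript, Arih1 came before Rnf19a in WT (19.3 and 18.7), Arih2 before Rnf14 (16.0 and 15.2) and Rnf216 before Rnf217 (6.92 and 4.93), while Rnf19b stayed first at 133 and Cul9 and Rnf144a last at 0.722 and 0.0385.

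**Figure D3:**
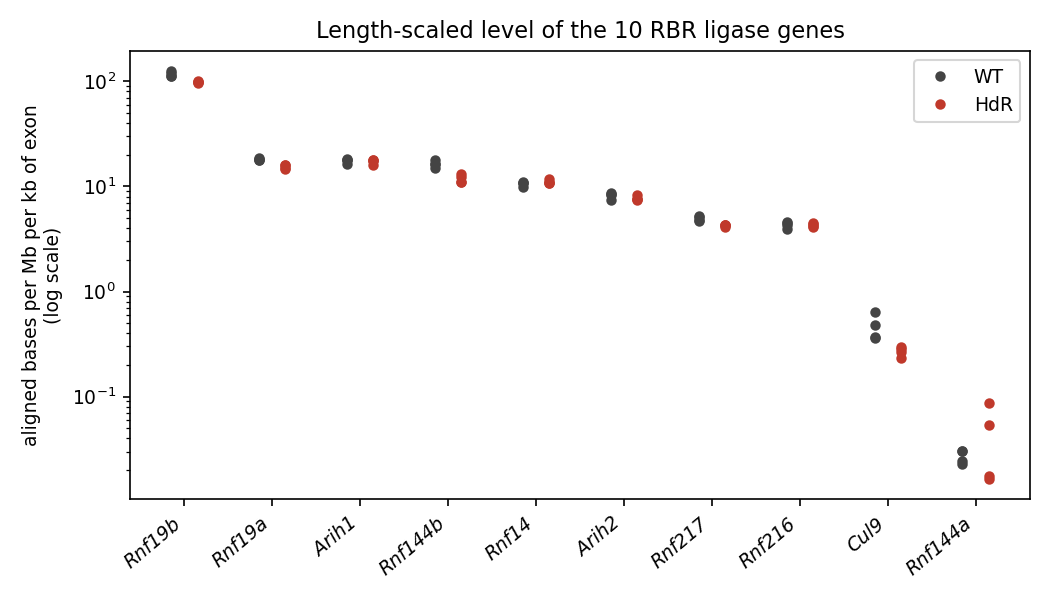
Length-scaled level (vertical log axis, aligned bases per Mb per kb of exon) of the 10 RBR ligase genes in each WT (grey) and HdR (red) library, ordered by the WT mean. Rnf19b stands alone near 117, 7 genes lie from Rnf19a down to Rnf216 at a WT mean of 4.31, and Cul9 and Rnf144a lie below 1.

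Depth, melanocyte markers and 4 of the 6 keratinocyte markers differed with genotype beside these falls. The endothelial sum, from genes under the filter, was also separated by genotype, while the keratinocyte sum overlapped. The summed level of the 7 melanocyte markers was 50.3 to 57.9 aligned bases per Mb in WT and 26.2 to 28.6 in HdR, with no marker at 0 in every library. Immune markers summed to 4.28 to 6.58 and 3.13 to 4.47, with 1 of 5 called lower and the Langerhans cell marker Cd207 and the macrophage marker Lyz2 at 0 in every library. Fibroblast markers summed to 0.118 to 0.73 and 0.121 to 3.86, and endothelial markers to 0.268 to 0.627 and 1.04 to 1.46. The part of other cells in the RBR falls was not tested, and in bulk RNA fewer cells of a type and less RNA per cell cannot be told apart. With every library thinned to the shallowest, the falls were -0.49 for Rnf144b, -0.75 for Cul9, -0.25 for Rnf19a, -0.24 for Rnf19b and -0.20 for Rnf217, and all 5 were still called (adjusted p 0.0181 or lower).

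For each called member, the pair of genes with the most similar course over the 8 libraries was looked up among 10001 genes, by the root mean square difference of mean-centred log2 levels (0 means the same course). Rnf19b was closest to Bicd2 and Slc25a1 (0.0214 for both) and Rnf217 to Sod2 and Sertad2 (0.0198 and 0.0229). Rnf19a was closest to Wwtr1 and Tyk2 (0.0299 and 0.0305). Rnf144b lay further from its nearest genes, Tiam1 and Sft2d2 (0.0571 and 0.0582), and Cul9 furthest, from Glce and Erlin1 (0.117 and 0.119). These likenesses include the genotype difference itself and are a description only. The distances are not scaled to the spread or size of change of a gene, and Cul9 had a WT coefficient of variation of 28.6%. They therefore do not show that the course of Cul9 or Rnf144b is more distinct.

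Of the RBR genes outside the set, Rbck1, which encodes HOIL-1, fell from 87.5 ± 3.4 to 43.7 ± 1.87 (SD, n = 4), and Rnf31, which encodes HOIP, was not called (18.4 ± 0.922 and 16.8 ± 1.64). Coverage summed over a gene cannot separate the deleted RING from the rest of Rbck1. Ankib1 was not called either, at 66.9 ± 6.74 and 63.4 ± 2.45. Of the 3 tested, 1 was called lower and 0 higher, and 2 were lower without WT 3.

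E2 enzymes, which hand ubiquitin to RBR ligases, went both ways. Of 8 tested, 2 were higher and 3 lower (median -0.02 in log2). For this list and those that follow, the shares over all genes tested were 21.2% higher and 23.8% lower. Ube2l3, which encodes UBCH7, the E2 that RBR ligases use by preference, rose from 146 ± 6.28 to 157 ± 2.5 (SD, n = 4, log2 fold change 0.11 ± 0.038, SE, limma adjusted p = 0.0241). That call was lost with the replicate number as a block, after thinning, and without WT 2, WT 4 or HdR 2 (adjusted p up to 0.0717). Ube2l6, its interferon-inducible relative, was low, at 1.48 ± 0.554 and 2.46 ± 0.39, and its rise of 0.50 ± 0.15 lost its call without WT 1 (adjusted p = 0.0518). Ube2e2 fell from 18.3 ± 0.238 to 13.3 ± 1.33 (-0.44 ± 0.074) and Ube2d3 from 402 ± 14.6 to 360 ± 7.73 (-0.16 ± 0.035), and both kept their call in each alternative tried, not counting the test against a fold of 1.2. Ube2d2b, an intronless copy, had signal in WT 2 alone (0.0483). Reads of the near-identical Ube2d genes could be shared between copies.

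The NEDD8 and cullin-RING machinery, with which the ariadne ligases act, was mostly not called. Of 17 genes, 3 were higher and 1 lower (median -0.02 in log2). Uba3, the catalytic subunit of the NEDD8 E1, fell from 62.0 ± 4.26 to 52.1 ± 3.8 (SD, n = 4, log2 fold change -0.25 ± 0.058, SE). Cand1, a cullin exchange factor, rose from 154 ± 5.18 to 171 ± 4.71 (0.15 ± 0.037). Nedd8 (0.13 ± 0.043) and Cul4b (0.12 ± 0.043) were higher by amounts whose calls were lost without single libraries: WT 2, WT 4 or HdR 1 for Nedd8, and any of WT 1 to 3, HdR 1, HdR 3 and HdR 4, or the replicate block, for Cul4b. With upper-quartile scaling 6 were higher.

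Ubiquitin precursor genes and the E1 genes that activate ubiquitin separated. Of 6 genes, 2 were higher and 3 lower (median -0.05 in log2). Uba1, the main ubiquitin E1, rose from 497 ± 17.1 to 583 ± 7.86 (SD, n = 4, log2 fold change 0.23 ± 0.034, SE, limma adjusted p = 3.48e-05). Uba6, the alternative E1, was at 0.16 ± 0.055, and lost its call with the replicate block, after thinning and without WT 3, HdR 3 or HdR 4. Ubb and Rps27a, which encode ubiquitin chains or fusions, were at -0.12 ± 0.036 and -0.15 ± 0.042. With upper-quartile scaling 0 of the 6 were called lower, and these transcripts have many processed copies in the genome that could share their reads.

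The stalled-ribosome factors also split, with 1 of 5 higher and 3 lower (median -0.12). Gcn1, the sensor of stalled ribosomes (Gcn1l1 in the table), rose from 137 ± 8.96 to 162 ± 7.83 (SD, n = 4, log2 fold change 0.24 ± 0.048, SE). Rnf25, the ligase that acts beside RNF14, fell from 25.8 ± 2.12 to 21.8 ± 1.53 (-0.23 ± 0.070), the collision sensor gene Zfp598 from 95.6 ± 3.3 to 86.1 ± 2.87 (-0.15 ± 0.041), and Eef1a1, an RNF14 substrate with many processed copies, from 6925 ± 69.8 to 6357 ± 78.5 (-0.12 ± 0.029).

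Among 13 tested genes for reported substrates or targets, 4 were higher and 3 lower, with a median of -0.04. Trp53, which encodes p53, the protein that CUL9 binds, rose from 133 ± 3.24 to 165 ± 6.61 (SD, n = 4), or 0.31 ± 0.038 in log2 terms (SE, adjusted p = 5.88e-06 by limma). Birc5, which encodes survivin, rose from 47.1 ± 2.84 to 64.4 ± 4.87 (0.44 ± 0.058). Traf3, an adaptor targeted by RNF216, rose from 54.5 ± 2.9 to 70.2 ± 4.56 (0.36 ± 0.053). A pair of genes is added here after their values were seen. Bax, whose product RNF144B acts on, rose from 89.9 ± 7.7 to 107 ± 2.59 (0.25 ± 0.052), and Arc, which encodes a synaptic protein targeted by RNF216, fell from 10.3 ± 2.98 to 5.29 ± 0.483 (-0.81 ± 0.16), with the WT libraries spread more widely than the HdR libraries. For these 5 genes the WT and HdR values did not overlap, and all 5 kept their call in each alternative tried, not counting the test against a fold of 1.2. They were picked by small p or after their values were seen, so neither trait is separate support. In the list, 7 of 13 tested genes did not overlap, against 21.3% of all genes tested with HdR lower and 19.8% with HdR higher. The test against a fold of 1.2 left 1 higher and 2 lower genes of this list. Tlr9 was close to 0, at 0 to 0.143 in WT and 0 to 0.103 in HdR.

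Over all 52 tested partner and substrate genes, 12 were higher and 14 lower, 26 of 52 called (median -0.04 in log2). This share is near the 45% of all genes called. The number lower depended on scaling and was 9 with upper-quartile factors.

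**Figure D4:**
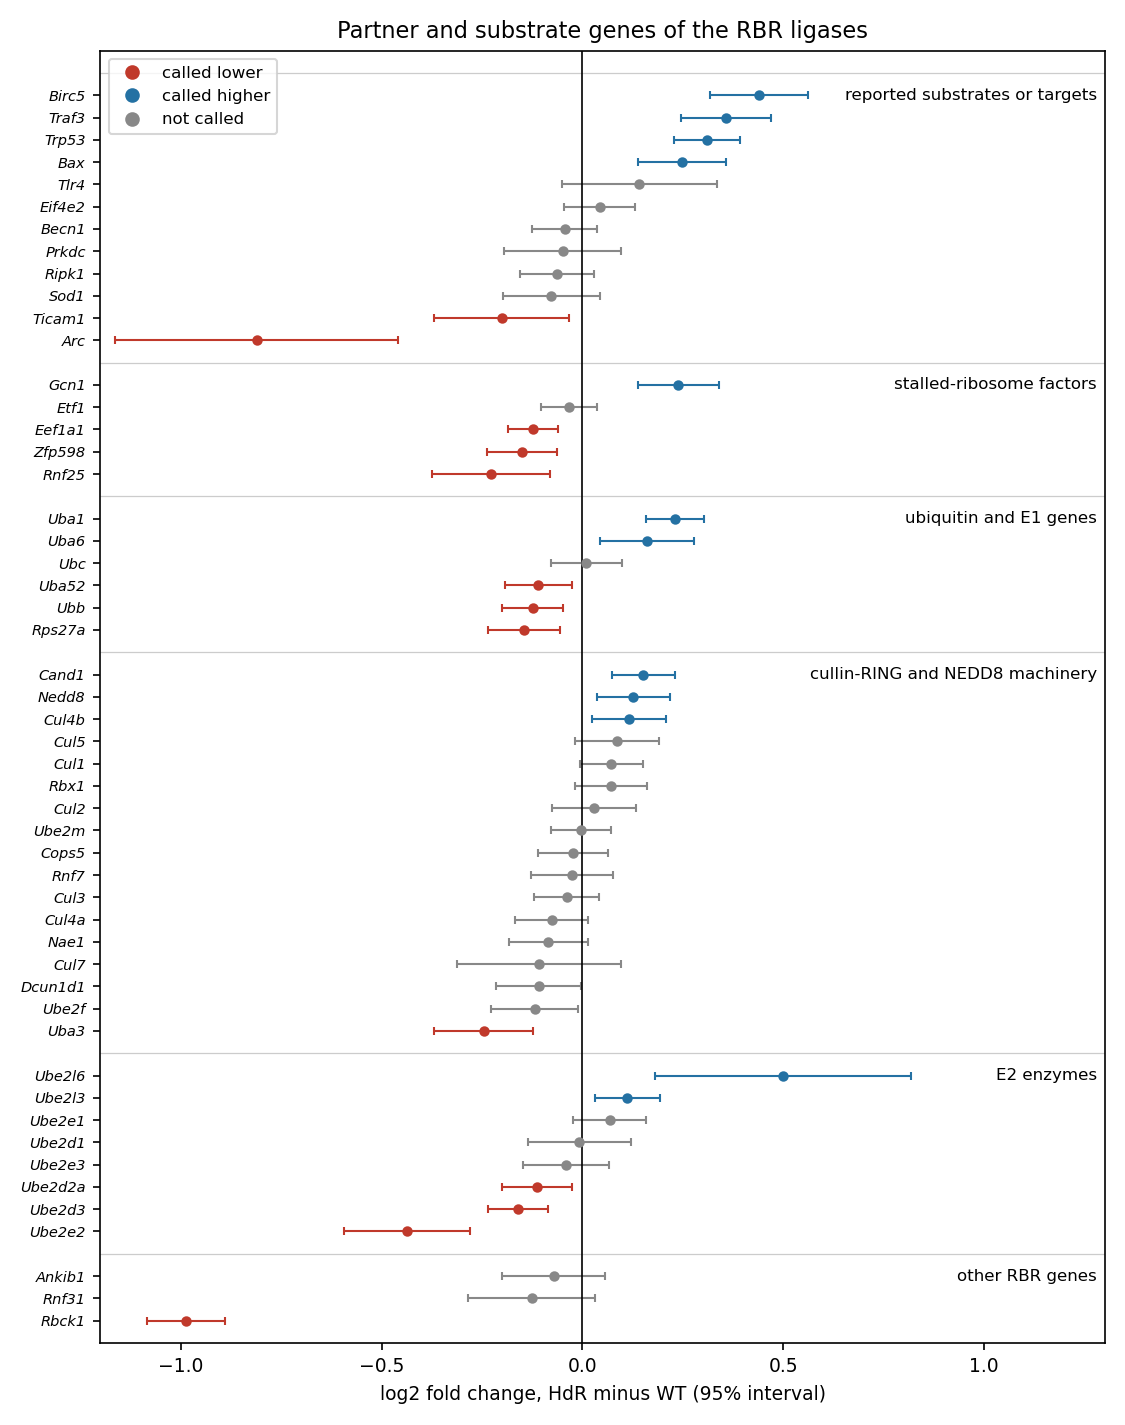
Log2 fold change (horizontal axis, HdR minus WT) with its 95% interval for the tested partner and substrate genes, 1 of them not drawn, grouped by list, in red where called lower, blue where called higher and grey where not called; intervals are not adjusted for the number of genes. Most lists hold genes on both sides of 0, and the lowest value is that of Rbck1 at -0.99.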

How the data were processed

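RNA from 4 WT and 4 HdR keratinocyte samples was sequenced on a NovaSeq instrument after NEBNext library preparation, per the labels' protocols. The submitters' processing notes name GRCm38, and the aligner, counter, annotation and strand setting are not given in the sources used here. The authors deposited 1 signal table with no scaling between libraries, read from its values as coverage: whole numbers of aligned bases for each gene, whose commonest non-zero value was 302, the length of 2 reads of 151 bases. Of non-zero values under 10 such steps only 16.9% were whole multiples, so they are not counts and no counting interval or detection floor was used. Division by 302 gives the approximate read pairs quoted.

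Libraries were scaled with trimmed-mean factors (trimming 30% of log ratios and 5% of mean levels), and log2(level + 1) was fitted with limma 3.58.1 in R 4.3.3 (trend and robust, with statmod 1.5.0) on genotype alone, two-sided, Benjamini-Hochberg over 11870 genes with a mean of at least 1. Fold changes are on this scale, which understates those of low genes. Paralogue pairs were compared by exact permutation of the 8 libraries. Positions and exon lengths come from GENCODE vM21 (GRCm38), where 19158 of 19457 symbols matched. Promoter windows come from RefSeq (GRCm38.p6).

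The members and lists were chosen with earlier results of these data known. The text names all members, from each partner list the called genes (the 4 with the smallest p where over 4 were called) and those under the filter, and for each called member the 2 genes of most similar course with a mean of at least 5; a few genes under this rule are not reported here, though counts of a list include them. Alternatives were median-of-ratios, upper-quartile and library-total scaling, pseudocounts of 0.1 and 5, no filter, a stricter filter (level of 5 in 4 libraries), the replicate number as a block, thinning, limma-voom with sample weights (a model made for counts, run on the approximate read pairs), a test against a fold of 1.2, and each library left out in turn. Python 3.11.15 with matplotlib 3.10.9 drew the figures.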

Additional observations from a re-analysis of the deposited data

Results flagged for a closer look

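Of 26 groups of 4 values checked (10 genes and 3 paralogue ratios in each genotype), 2 had a library far from the other 3, and chance flags about 1 group in 20. Arih1 in HdR 2 was at 124 aligned bases per Mb, below the other HdR libraries at 136 to 137. Rnf217 in HdR 3 was at 45.7, below the other HdR libraries at 46.9 to 47.1, a gap that is wide only beside their narrow spread.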

How the results depend on the processing

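The 5 called RBR ligase genes kept their direction and call in every alternative that tested them, except the test against a fold of 1.2. That test left 1 member, 343 higher and 544 lower genes in all, and 1 higher and 3 lower partner genes. Cul9 was not tested under the stricter filter, which left 4 called. Across alternatives the log2 fold change ran from -0.52 to -0.42 for Rnf144b, -0.80 to -0.36 for Cul9, -0.29 to -0.22 for Rnf19b, -0.25 to -0.18 for Rnf19a and -0.24 to -0.17 for Rnf217. Upper-quartile scaling called 3113 genes higher and 2278 lower, against 2517 and 2829, and 9 partner genes lower, against 14. Of the 4 uncalled genes, Arih2 and Rnf14 kept their sign and the others changed it: Arih1 was at 0.028 with upper-quartile scaling, 0.014 with library totals and -0.049 to 0.020 with each library left out, and Rnf216 at 0.0033 with median-of-ratios, 0.036 with upper-quartile, 0.023 with library totals, 0.063 after thinning and -0.045 to 0.023 with each library left out. The paralogue differences stayed uncalled. A single separated pair could not have been called at 0.05, since the smallest exact permutation p, 0.0286, becomes 0.0858 after adjustment over 3 pairs. With the replicate block 5 members were lower and 2236 and 2519 genes were called higher and lower. Same-numbered libraries did not deviate together (correlations across genes of 0.028, -0.068, -0.22 and 0.020). The labels do not say whether the numbers pair the samples, and these correlations cannot decide it. Rnf144a was not tested because its mean level, 0.259 aligned bases per Mb (1.67 to 4.88 read pairs in a library), was under the filter.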
